A study of Mus musculus with 32 samples.

Results

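The matricellular genes examined here are 10 of the 53801 genes in the tables: Postn, Cilp, Fn1, Tnc, Spp1, Sparc, Thbs1, Thbs4, Ctgf and Cyr61, the last 2 also known as Ccn2 and Ccn1. They were selected by name, and with the genotype differences of these same libraries already known, Postn and Cilp being among the genes with the largest differences at both ages. The differences between genotypes at 5 and at 25 weeks are therefore given as a description, without p-values. The changes with age, the differences between the sexes and the interaction of genotype with sex were tested. The changes of Postn, Cilp, Fn1, Tnc, Spp1 and Cyr61 with age in Col6a2-/- are likewise a description only. All 10 genes passed the filter on low values, and each is listed as a single gene ID.

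RNA came from quadriceps muscle of 32 mice, 1 library per mouse, in 8 groups of 4: wild type (WT) or Col6a2-/-, 5 or 25 weeks old, female or male. Col6a2 encodes the alpha 2 chain of collagen VI, a microfibril-forming collagen of the muscle matrix. The mutants carried the Col6a2tm1(KOMP)Vlcg allele, which was made on C57BL/6N and backcrossed for 5 generations to C57BL/6J. The mutation is constitutive, so no cell type carries an intact copy, and WT and mutant mice both came from heterozygous breeders. RNA was taken from whole cryosections, so each library is a mixture of fibres and of the connective tissue, vessel and immune cells between them. In such bulk samples, fewer cells of a type and less RNA per cell cannot be told apart. Nothing in the labels says how mice were distributed over litters or days, so the p-values measure the spread between these mice alone.

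Matricellular proteins are secreted into the extracellular matrix without being its main load-bearing fibres. They bind collagens, growth factors and cell surface receptors such as integrins and CD44, and so change how cells attach and respond to signals. In skeletal muscle they are known for high expression during growth, after injury and in fibrosis, and several are targets of TGF-beta.

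Promoter sequence is shown for the 2 genes with the largest genotype differences and for the 2 that held a TEAD motif, because these are the members whose windows held any of the motifs searched. The windows are the 250 bases before the start site in the RefSeq promoter table of GRCm38.p6, 5′ to 3′ on the strand of the gene, and 7 of the 10 members matched that table; no window was used for Fn1, Thbs1 or Ctgf. The Sparc window lies at a start site 3103 bases from the gene start of the expression tables, and those of the other 6 within 7 bases of it. Postn lies on the plus strand, with its window at chr3:54360857-54361106, and Cilp on the plus strand, with its window at chr9:65264930-65265179. In both sequences the capitals mark a TATA box (TATATAA, searched on the gene's strand only).
Postn: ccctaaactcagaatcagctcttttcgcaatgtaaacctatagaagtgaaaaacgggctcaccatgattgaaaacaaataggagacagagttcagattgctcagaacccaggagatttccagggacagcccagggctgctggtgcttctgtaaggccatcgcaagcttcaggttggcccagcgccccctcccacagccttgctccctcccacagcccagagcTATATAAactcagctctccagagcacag
Cilp: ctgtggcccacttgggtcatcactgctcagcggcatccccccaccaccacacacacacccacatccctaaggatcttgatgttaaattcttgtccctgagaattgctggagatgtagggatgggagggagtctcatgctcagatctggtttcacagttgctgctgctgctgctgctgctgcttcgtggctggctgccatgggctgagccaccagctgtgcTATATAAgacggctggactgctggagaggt
The motif began at position -28 in Postn and at -30 in Cilp, counted from the start site. It occurred in 2 of the 7 member windows and in 2.06% of all 32841 windows of the table. Other forms of the TATA box were not searched, so a window without these letters may still hold one.

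Thbs4 lies on the minus strand, with its window at chr13:92794819-92795068, and Cyr61 on the minus strand, with its window at chr3:145649986-145650235. Here the capitals mark the TEAD motif GGAATG, which in both appears as its reverse complement, CATTCC.
Thbs4: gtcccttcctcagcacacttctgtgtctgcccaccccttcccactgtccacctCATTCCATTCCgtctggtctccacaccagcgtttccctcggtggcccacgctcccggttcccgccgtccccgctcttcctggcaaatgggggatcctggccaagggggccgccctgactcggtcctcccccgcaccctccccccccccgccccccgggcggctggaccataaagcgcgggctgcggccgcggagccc
Cyr61: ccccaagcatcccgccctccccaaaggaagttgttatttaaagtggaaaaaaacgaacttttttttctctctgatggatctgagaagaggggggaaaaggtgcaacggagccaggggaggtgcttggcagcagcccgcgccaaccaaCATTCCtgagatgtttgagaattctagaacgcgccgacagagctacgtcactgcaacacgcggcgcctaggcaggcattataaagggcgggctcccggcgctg
The Thbs4 window holds 2 copies that share a base, at -197 and -192, and the Cyr61 window holds 1, at -103. On both strands together, the TEAD motif occurred in 2 of 7 member windows and in 12.6% of all windows. The AP-1 motif TGANTCA occurred in 0 of 7 member windows and in 6.75% of all windows, and the SRF CArG box in 0 of 7 and in 1.47%. The motifs were chosen after the expression values were known, and a match or its absence describes these letters in these windows only.

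The targeted gene followed the labels. Col6a2 was between 6.60 and 51.2 TPM in the 16 WT libraries and at most 0.171 TPM in the 16 Col6a2-/- libraries. TPM is an abundance scaled to transcript length and to the library total, so its levels can be compared between genes. The tables hold no read counts. The ratio of coverage to FPKM, a guide to relative depth, was between 6.78 and 13.7 over the libraries, and 10399 to 12877 genes reached 1 TPM. Mitochondrial genes took 31.9% to 46.9% of TPM and Rn7s genes 20.8% to 30.5%, which limits what remains for all others.

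Across all genes, 25.4% of the 12817 tested were called between the genotypes at 5 weeks (limma, Benjamini-Hochberg adjusted p under 0.05), and 4.70% at 25 weeks. At 5 weeks 6 of the 10 matricellular genes were called, all higher in Col6a2-/-: Postn, Cilp, Fn1, Tnc, Spp1 and Cyr61. At 25 weeks 3 were called, all higher: Postn, Cilp and Fn1. Since the members were selected on these contrasts, nothing is read from those counts. The median of all genes was itself shifted on the TPM scale, by 0.145 (log2) at 5 weeks and 0.08 at 25 weeks. The share of calls that were higher in Col6a2-/- depended on the scaling: at 5 weeks it was 91.6% on TPM, 47.9% after median-of-ratios scaling and 45.8% after quantile normalization, and at 25 weeks 95.0%, 51.4% and 57.0%. Relative to the median of all genes, the log2 difference at 5 and 25 weeks was 1.82 and 1.42 for Postn, 2.05 and 1.38 for Cilp, and 0.68 and 1.26 for Fn1. Values below are on the TPM scale without that subtraction. The 5-week count of 6 members was 2 with median-of-ratios scaling or quantile normalization, and varied between 2 and 8 when single mice were left out. The share of all genes called at 5 weeks was 24.3% and 24.1% with these 2 scalings, close to the 25.4% on TPM. At 25 weeks the share was 10.8% with median-of-ratios scaling and 6.62% with quantile normalization. It was also 2.11% to 3.03% without any 1 of 7 mice of that age (WT female 4, WT male 2 or 3, and mutant female 1 or 4 or male 1 or 3), and 7.75% and 7.55% without mutant females 2 and 4 of 5 weeks, whose libraries enter the shared estimate of spread.

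**Figure D1:**
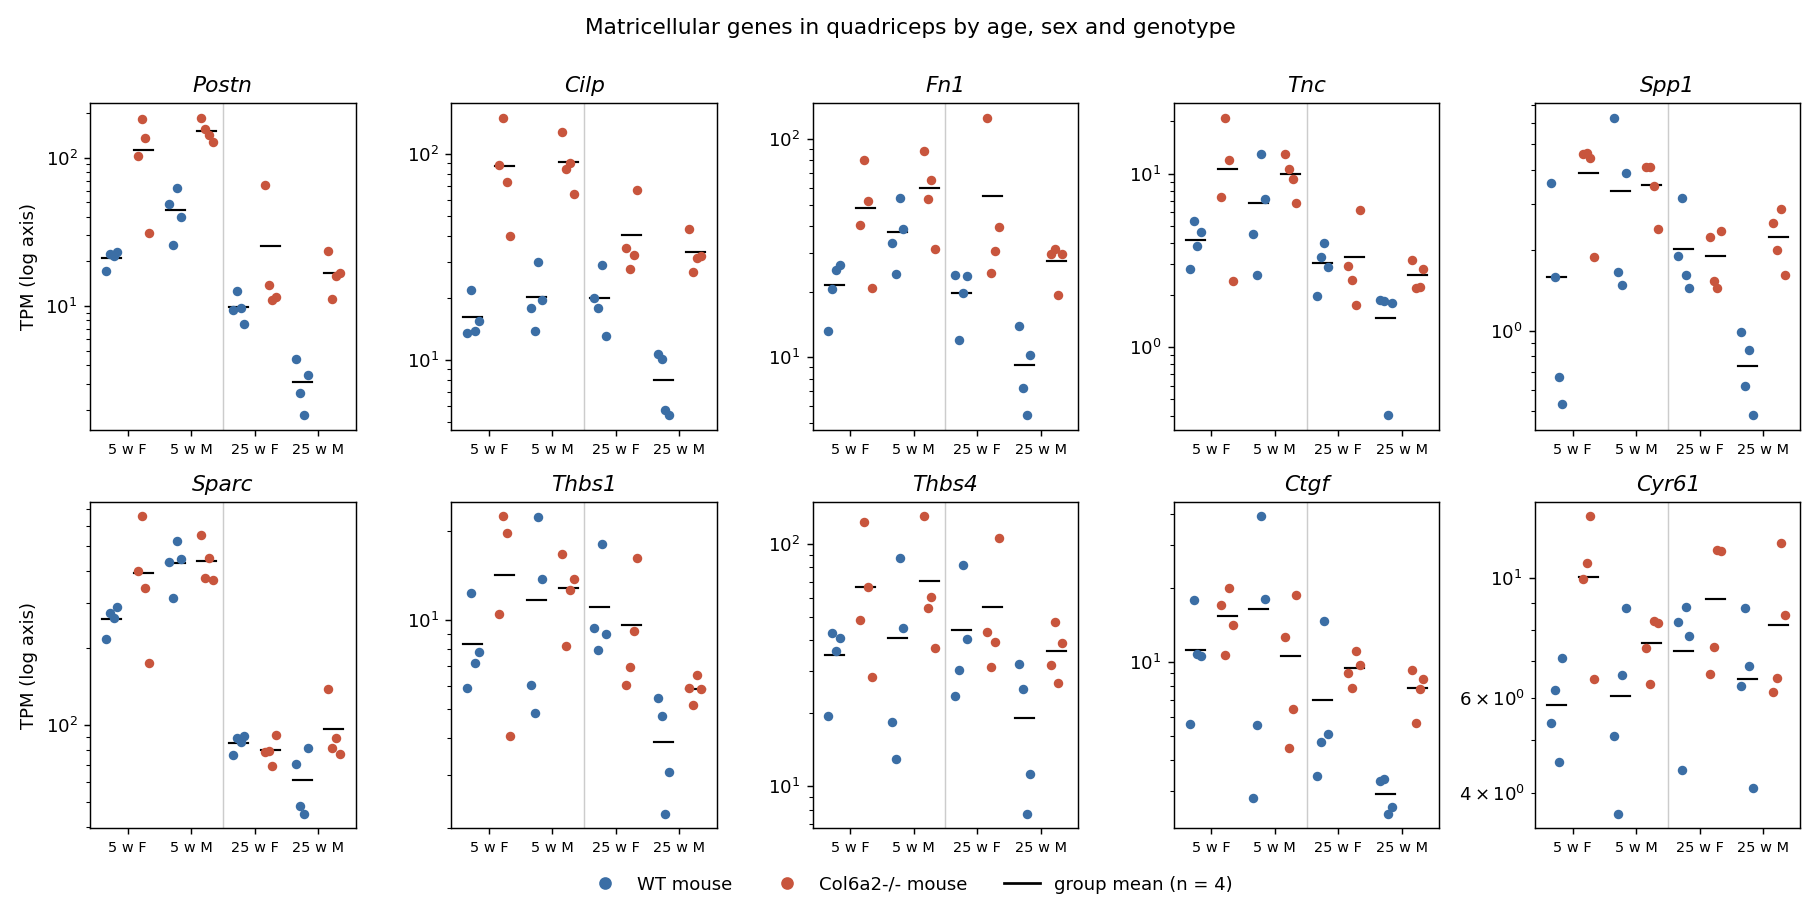
TPM of the 10 genes in each of the 32 mice, on log axes that differ between panels; points are mice, short lines are group means (n = 4), and w stands for weeks, F for females and M for males. Postn and Cilp have red (Col6a2-/-) points above blue (WT) points in most groups, and Sparc drops between 5 and 25 weeks in both genotypes.

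Postn, which encodes periostin, a secreted protein that binds collagen and integrins and is made by activated fibroblasts (chr3:54361109-54391037, plus strand, GRCm38 as are all positions here), ranged from 1.84 to 185 TPM. In 5-week females it measured 17.1, 22.3, 21.8 and 23.1 TPM in WT and 102, 181, 136 and 31.0 TPM in Col6a2-/-. In 5-week males it measured 48.6, 26.0, 62.3 and 39.5 TPM in WT and 185, 155, 142 and 127 TPM in Col6a2-/-. Within each sex every mutant lay above every WT mouse at 5 weeks, although the lowest mutant female, replicate 4, lay below 3 of the 4 WT males. The ratio of means was 5.35 in females and 3.45 in males.

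At 25 weeks Postn measured 9.36, 12.7, 9.73 and 7.61 TPM in WT females and 65.0, 13.9, 11.0 and 11.5 TPM in Col6a2-/- females. In 25-week males it measured 4.40, 2.59, 1.84 and 3.45 TPM in WT and 23.4, 11.2, 15.8 and 16.6 TPM in Col6a2-/-. The males separated without overlap, with a ratio of means of 5.46, whereas 2 of the 4 mutant females lay within the WT range and the female mean rested on replicate 1. The log2 difference over both sexes was 1.97 (SE 0.299) at 5 weeks and 1.50 (SE 0.299) at 25 weeks, the latter 1.21 without that female. In the order of the 8 group means, both 5-week mutant groups came first, 152 TPM in males and 113 TPM in females, which differed by less than the SD of the females. WT males at 25 weeks were lowest, 3.07 TPM, below WT females of that age by more than the SD.

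Cilp (chr9:65265180-65280605, plus strand) encodes cartilage intermediate layer protein, a matrix protein first known from cartilage that binds TGF-beta. It showed the largest genotype difference of the 10 genes at 5 weeks, 2.19 (log2, SE 0.224). In 5-week females it measured 13.5, 21.9, 13.7 and 15.5 TPM in WT and 88.9, 150, 73.5 and 39.8 TPM in Col6a2-/-. In 5-week males it measured 17.8, 13.8, 30.0 and 19.5 TPM in WT and 128, 84.2, 90.4 and 64.1 TPM in Col6a2-/-. All 8 mutants lay above all 8 WT mice at 5 weeks, also across the sexes, and Cilp was the member for which that held. The same held for 1.18% of all genes tested.

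At 25 weeks Cilp measured 20.1, 17.8, 28.8 and 13.1 TPM in WT females and 34.8, 27.6, 32.2 and 67.0 TPM in Col6a2-/- females. In 25-week males it measured 10.6, 10.1, 5.70 and 5.39 TPM in WT and 43.2, 26.6, 31.3 and 32.02 TPM in Col6a2-/-. The males did not overlap, and in females 1 mutant lay below the highest WT mouse. The log2 difference over both sexes was 1.46 (SE 0.224), and the ratio of means 2.03 in females and 4.19 in males. The 4 mutant group means stood above the 4 WT group means, the lowest of the former, 33.3 TPM, exceeding the highest of the latter, 20.3 TPM, by more than the larger SD.

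Fn1 (chr1:71585520-71653200, minus strand) encodes fibronectin, a glycoprotein that links collagens to integrins and on which other matrix proteins assemble. In 5-week females it measured 13.3, 20.7, 25.1 and 26.5 TPM in WT and 40.3, 80.4, 51.9 and 20.9 TPM in Col6a2-/-, and in 5-week males 33.4, 24.2, 53.6 and 38.9 TPM in WT and 88.8, 53.3, 64.8 and 31.3 TPM in Col6a2-/-. The genotypes overlapped in both sexes at that age. At 25 weeks it measured 23.9, 12.0, 19.7 and 23.5 TPM in WT females and 125, 24.3, 30.7 and 39.6 TPM in Col6a2-/- females, and 14.0, 7.26, 5.44 and 10.3 TPM in WT males and 29.7, 31.3, 19.4 and 29.9 TPM in Col6a2-/- males. At this age the genotypes did not overlap within either sex. The log2 difference was 0.82 (SE 0.285) at 5 weeks and 1.35 (SE 0.285) at 25 weeks, the latter 1.10 without replicate 1 of the 25-week mutant females, the mouse that was also highest in Postn.

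Tnc (chr4:63959785-64047015, minus strand) encodes tenascin-C, a large glycoprotein of tendon and of the myotendinous junction that modulates adhesion to fibronectin. In 5-week mutant females it measured 7.31, 21.0, 12.0 and 2.40 TPM, so that 1 mouse lay below all 4 WT females of that age, which measured 2.82, 5.30, 3.81 and 4.62 TPM. In 5-week males the mutants (13.0, 10.7, 9.35 and 6.73 TPM) overlapped the WT mice (4.501, 2.60, 13.0 and 7.19 TPM), and none lay above WT replicate 3. At 25 weeks all groups were between 0.405 and 6.15 TPM. The log2 difference was 0.77 (SE 0.281) at 5 weeks and 0.31 (SE 0.281) at 25 weeks.

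Thbs1 (chr2:118111876-118127133, plus strand) and Thbs4 (chr13:92751590-92794818, minus strand) encode thrombospondins, Thbs1 a known activator of latent TGF-beta and Thbs4 a pentameric form abundant in tendon and the myotendinous junction. Thbs4 was the more abundant, 7.71 to 130 TPM against 2.23 to 22.4 TPM for Thbs1. Both were widely spread among mice of the same group. In 5-week WT males Thbs4 measured 18.3, 12.9, 87.3 and 45.2 TPM and Thbs1 6.03, 4.86, 22.3 and 13.7 TPM, with the same mouse, replicate 3, highest in both. The log2 differences between genotypes were 0.89 (SE 0.368) and 0.69 (SE 0.368) for Thbs4 and 0.41 and 0.17 (SE 0.282 each) for Thbs1, at 5 and 25 weeks. Without replicate 3 of the 5-week WT males the 5-week difference of Thbs4 was 1.13, and without replicate 2 of that group it was 0.68. That of Thbs1 ran from 0.26 without the same replicate 2 to 0.64 without mutant female 4.

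Sparc (chr11:55394500-55423183, minus strand) encodes osteonectin, a collagen-binding protein of growing and remodelling matrix, and was the most abundant of the 10 genes, 45.1 to 653 TPM. Its genotype differences were 0.24 at 5 weeks and 0.27 at 25 weeks (SE 0.180 each). The 5-week value was 0.09 without mutant female 2 and 0.41 without mutant female 4. With other scalings or units it was as low as 0.03. Of the 4 mutant 5-week females 3, at 401, 653 and 343 TPM, lay above the WT females, whose highest was 290 TPM, while the fourth was at 174 TPM. Spp1 (chr5:104435118-104441050, plus strand) encodes osteopontin, a phosphoprotein that binds integrins and CD44 and is made by macrophages and damaged muscle. It had the lowest mean TPM of the 10 genes in each of the 8 groups and ranged from 0.482 to 6.28 TPM. At 5 weeks Spp1 measured 3.59, 1.58, 0.672 and 0.531 TPM in WT females and 4.61, 4.64, 4.43 and 1.89 TPM in Col6a2-/- females, while the male means of 3.33 and 3.53 TPM differed by less than their SD. At 25 weeks the mutant males, 1.61 to 2.85 TPM, lay above the WT males, 0.482 to 0.992 TPM, and the females overlapped. Its log2 differences were 0.60 and 0.43 (SE 0.211 each).

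Ctgf (chr10:24595442-24598683, plus strand) and Cyr61 (chr3:145646976-145649981, minus strand) encode CCN proteins, short-lived secreted regulators that are induced by TGF-beta and by the YAP and TEAD proteins and that bind integrins. Ctgf measured 2.80, 5.55, 39.0 and 18.1 TPM in 5-week WT males, a range that enclosed all 8 mutant mice of that age (4.48 to 20.0 TPM), and the ratio of means over both sexes was 0.944. At 25 weeks the mutant males measured 9.30, 5.64, 7.79 and 8.58 TPM against 3.31, 3.35, 2.43 and 2.59 TPM in WT males, without overlap, whereas the females overlapped through 1 WT mouse at 14.8 TPM. Its log2 differences were 0.15 and 0.86 (SE 0.338 each), and the 5-week value took the opposite sign after median-of-ratios scaling or quantile normalization. Cyr61 stayed within 3.66 and 13.0 TPM in all libraries, with differences of 0.51 and 0.29 (SE 0.167 each).

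**Figure D2:**
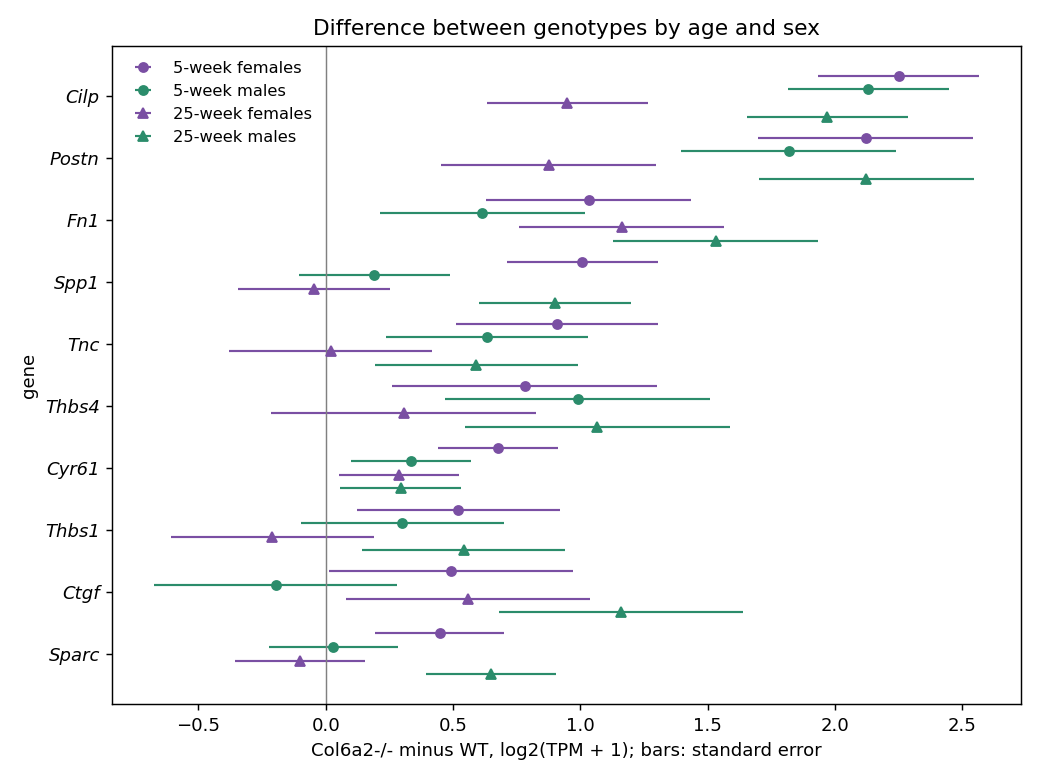
Difference between genotypes in log2(TPM + 1) for each gene, as Col6a2-/- minus WT, in each age and sex (4 mice against 4); bars are standard errors of the fit. Cilp and Postn lie farthest to the right in both sexes at 5 weeks and in 25-week males, and in 25-week females they are at 0.95 and 0.88, behind Fn1 at 1.16.

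Counted by group, the number of members whose 4 mutants all lay above the 4 WT mice of the same age and sex was 2 of 10 in 5-week females (8.53% of all genes tested), 2 of 10 in 5-week males (9.32%), 1 of 10 in 25-week females (3.80%) and 6 of 10 in 25-week males (13.9%). The 6 were Postn, Cilp, Fn1, Tnc, Spp1 and Ctgf. With the sexes together at 25 weeks it was 0 of 10, against 0.663% of all genes. These are counts on the contrasts by which the members were chosen and support nothing.

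The interaction of genotype with age is the 25-week difference minus the 5-week difference, both of which chose the members, so its values are a description and nothing is read from them. By limma 0 of 10 members were called, against 0.492% of all genes, and 1, Cilp, had an unadjusted p under 0.05. Its difference changed by -0.73 (log2, SE 0.317) from 5 to 25 weeks. The others ran from -0.47 for Postn (SE 0.423) to 0.71 for Ctgf (SE 0.478), with Fn1 at 0.52 (SE 0.403). Whether the genotype difference depended on sex was tested, and 0 of 10 were called, against 0.0156% of all genes, and 0 had an unadjusted p under 0.05; the values ran from -0.17 (Cyr61) to 0.48 (Thbs4). That test averages over the ages, so sex differences of opposite sign at 5 and 25 weeks cancel in it: for Spp1 the young females gave 1.01 and the young males 0.19, while older females gave -0.05 and older males 0.90 (log2, Col6a2-/- minus WT). For Postn the young values were 2.12 and 1.82, and the older ones 0.88 and 2.12, females first. Whether the sexes differed at a single age, as in the separation of 25-week males, was not tested. Averaged over age and genotype, males and females differed in 0 of 10 members, against 3.05% of all genes, with 0 at an unadjusted p under 0.05 and values from -0.43 (Ctgf) to 0.18 (Sparc). These tests do not show that the sexes are alike, since the standard errors reached 0.260 for the difference between the sexes and 0.520 for its interaction with genotype (log2).

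The members were then compared between the ages. In WT muscle 5 of 10 members fell between 5 and 25 weeks: Postn, Sparc, Ctgf, Fn1 and Tnc, the last a call that 1 mouse decided. Of all genes tested, 19.8% were called and 15.3% fell. In Col6a2-/- muscle 5 of 10 fell: Postn, Sparc, Tnc, Cilp and Spp1, against 34.2% of all genes called and 28.8% that fell. No member rose in either genotype. Some fibroblast, macrophage, regenerating fibre and tenocyte markers also fell with age, with counts given below. The libraries of both genotypes took part in the choice of members, which rests on mutant minus WT differences at each age, so neither age comparison is independent of that choice. Postn, Cilp, Fn1, Tnc, Spp1 and Cyr61 were called higher in the 5-week mutants, and their changes in Col6a2-/- start from those libraries. These changes are therefore given without p-values, and their calls support nothing. In WT, the falls of Postn and Fn1 end at 25-week libraries whose low values took part in the choice. Their WT p-values are therefore not independent of it. Of the calls across all genes, 22.6% were higher at 25 weeks in WT and 15.8% in Col6a2-/- on the TPM scale; these shares were 50.2% and 50.5% after median-of-ratios scaling, 51.4% and 53.2% after quantile normalization, and 49.7% and 24.4% when mitochondrial and Rn7s genes were left out of the scaling. FPKM gave 32.7% in WT. The median of all genes changed with age by -0.08 in WT and -0.14 in Col6a2-/- on the TPM scale. Relative to it, Sparc changed by -2.13 and -2.03 and Postn by -2.16 and -2.57 (log2).

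Sparc fell in both genotypes by nearly the same amount. In WT it lay between 217 and 525 TPM at 5 weeks and between 45.1 and 90.5 TPM at 25 weeks, a log2 change of -2.20 (SE 0.180; limma, adjusted p = 1.1e-09). In Col6a2-/- it lay between 174 and 653 TPM and then between 69.1 and 139 TPM, a log2 change of -2.17 (SE 0.180; limma, adjusted p = 4.4e-10). Every 5-week mouse lay above every 25-week mouse in both genotypes, and the ratio of means was 4.71 in each. The same separation held for 2.30% of all genes in WT, where Postn was the other member that showed it, and for 1.88% in Col6a2-/-.

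Postn fell by 2.24 on the log2 scale in WT (SE 0.299; limma, adjusted p = 3.3e-06), its mean being 32.6 TPM in young and 6.45 TPM in older mice. In Col6a2-/- it fell by 2.71 (SE 0.299), with means of 133 and 21.1 TPM. There 1 mutant at 25 weeks, at 65.0 TPM, lay above 1 at 5 weeks, at 31.0 TPM.

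Tnc fell by 0.94 in WT (SE 0.281, limma adjusted p = 0.0174) and by 1.40 in Col6a2-/- (SE 0.281). The WT call was lost without replicate 3 of the 5-week males, where the change was -0.77 (limma, adjusted p = 0.0508), and with no filter on low values. Fn1 fell by 1.02 in WT (SE 0.285, limma adjusted p = 0.0113). Its change in Col6a2-/- was -0.50 without being called, or -0.74 without replicate 1 of the 25-week females. Ctgf fell by 1.15 in WT (SE 0.338; limma adjusted p = 0.0161) and changed by -0.43 in Col6a2-/- without being called. Without replicate 3 of the 5-week WT males the WT value of Ctgf was -0.85 (limma, adjusted p = 0.0460). That Ctgf and Fn1 were called in WT alone does not show that their change with age differs between the genotypes.

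Cilp was called in Col6a2-/- alone, which again does not show a difference between the genotypes in its change with age. In Col6a2-/- its mean was 89.8 TPM in young and 36.8 TPM in older mice, and it fell by 1.23 (SE 0.224). In WT the means were 18.2 and 13.9 TPM, and the log2 change of -0.49 was not called (limma, adjusted p = 0.124). Spp1 fell by 0.60 in Col6a2-/- (SE 0.211), a call lost after median-of-ratios scaling or quantile normalization, and changed by -0.42 in WT. Thbs1 changed by -0.43 and -0.68, Thbs4 by -0.33 and -0.53, in WT and Col6a2-/-, and none of these was called. Cyr61 was the member closest to no change, at 0.19 in WT and -0.03 in Col6a2-/-, the latter with the opposite sign under 4 other scalings or units.

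**Figure D3:**
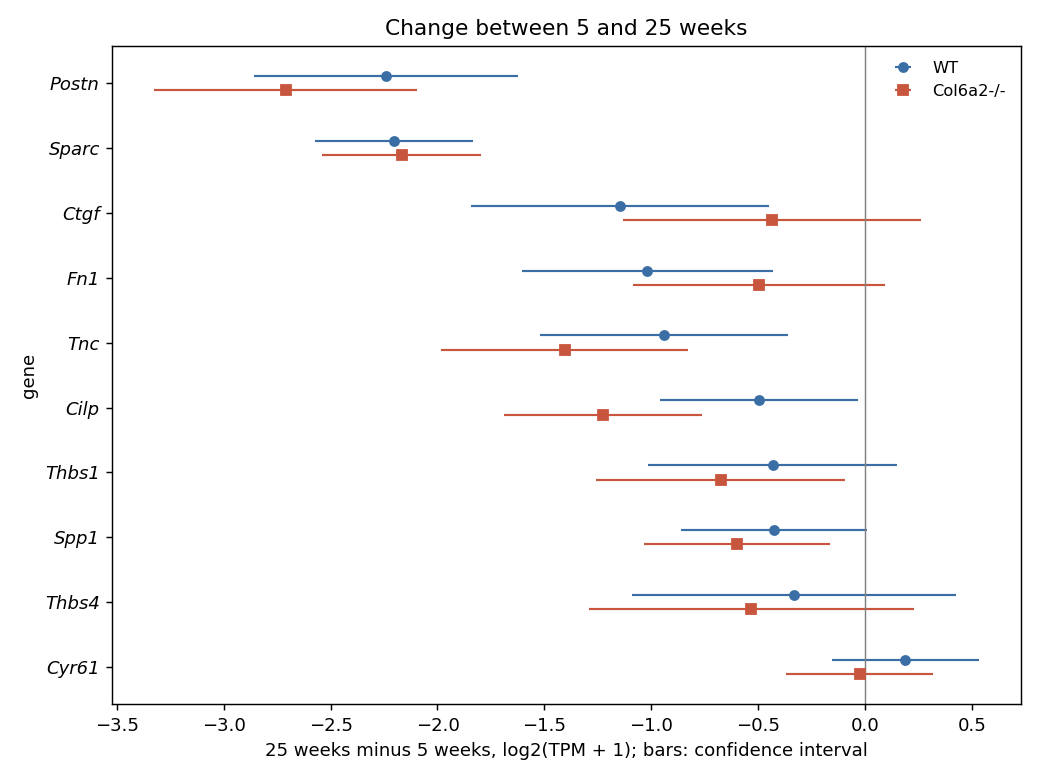
Change of each gene between 5 and 25 weeks in log2(TPM + 1), as 25 minus 5 weeks, in WT and Col6a2-/- mice (8 against 8); bars are 95% confidence intervals of the fit. Postn and Sparc lie beyond -2 in both genotypes, and the intervals of Cyr61 span 0.

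Related genes were counted from lists set beside the members. Counts here are of genes with a limma adjusted p under 0.05, on the TPM scale unless another is named. On that scale 23.2% of all genes were called higher in Col6a2-/- at 5 weeks and 4.47% at 25 weeks, and 15.3% of all genes fell with age in WT and 28.8% in Col6a2-/-. The shares higher at 5 weeks were 11.6% and 11.0% of all genes with median-of-ratios scaling and quantile normalization. Of 18 other matricellular genes 14 were tested. At 5 weeks 3 were called higher in Col6a2-/- and 0 lower: Tnn (tenascin-N) at 1.07, Thbs3 at 0.82 and Sparcl1 at 0.39 (log2). Tnn was at 0 in 13 of the 32 libraries and at most 8.67 TPM, so it passed the filter only through the few libraries where it was high. At 25 weeks it was again 3 and 0: Thbs3 at 0.76, Tgfbi, a TGF-beta induced matrix protein, at 0.67 and Sparcl1 at 0.33. The list medians, 0.13 and 0.25, stand beside 0.145 and 0.08 for all genes, and the 5-week count is near the share of all genes. With median-of-ratios scaling it was 2 higher and 0 lower at 5 weeks and 3 higher and 1 lower at 25 weeks. With age 0 rose and 7 fell in each genotype, among them Cilp2 (-1.41 in WT and -1.15 in Col6a2-/-) and Wisp1 (-1.10 and -1.29).

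Of 15 receptors for these proteins 13 were tested, and 6 were called higher in Col6a2-/- at 5 weeks and 0 lower, 2 higher and 0 lower at 25 weeks. With median-of-ratios scaling 4 were higher and 0 lower at 5 weeks, and with quantile normalization 4 higher and 1 lower. Cd44, the hyaluronan and osteopontin receptor, was higher by 0.93 at 5 weeks and 0.86 at 25 weeks (SE 0.147 each). Itga5, the fibronectin receptor subunit, was higher by 0.47 and 0.53, and Sdc4, a syndecan that binds fibronectin, by 0.52 at 5 weeks. With age 2 receptors rose and 4 fell in WT, and 1 rose and 6 fell in Col6a2-/-; Itgb5 rose in both, by 0.64 and 0.39.

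Genes induced by pathways that are known to drive these members were counted in the same way, and their 5-week counts are to be read beside the 23.2% above. Of 11 tested TGF-beta induced genes 3 were higher in Col6a2-/- and 0 lower at each age, with Timp1, an inhibitor of metalloproteinases, at 1.65 and 0.89 and Col3a1, the collagen III chain, at 1.04 and 1.25. Of 13 tested YAP and TEAD targets 4 were higher and 0 lower at 5 weeks, with Ankrd1 at 1.67 and Myof at 0.64, and 2 and 0 at 25 weeks, Axl at 0.57 and Myof at 0.56. Of 10 tested immediate early genes 4 were higher and 0 lower at 5 weeks, with Junb at 0.82 and Egr1 at 0.52, and 2 and 0 at 25 weeks. With median-of-ratios scaling the 5-week counts were 2 for TGF-beta induced genes, 4 for YAP and TEAD targets and 1 for immediate early genes, all higher. For the interaction with age, 0 genes of these 5 lists were called on TPM, and 1 YAP and TEAD target was called lower with median-of-ratios scaling and with quantile normalization. Of the regenerating fibre markers, a list described below, 5 of 7 were called lower on TPM and with each of those scalings. Of the macrophage markers, also described below, 0 of 10 were called lower on TPM and 1 of 10 with each of those scalings. Of all genes 0.421% were lower on TPM, 0.866% with median-of-ratios scaling and 1.08% with quantile normalization. With age in WT and in Col6a2-/-, 0 rose and 5 fell, and 1 rose and 6 fell, among TGF-beta induced genes, the steepest named here being Col3a1 at -2.60 and -2.39.

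Markers of cell types that make these proteins differed between the groups as well. Of 8 fibroblast markers 6 were called higher in Col6a2-/- at 5 weeks and 5 at 25 weeks, with 0 lower, and their summed level was 357 to 575 TPM in 5-week WT and 322 to 817 TPM in 5-week Col6a2-/- mice, and 252 to 454 and 369 to 594 TPM at 25 weeks. Of 10 macrophage markers 10 and 8 were called higher; their sum was 54.7 to 92.9 TPM in WT and 93.3 to 319 TPM in Col6a2-/- mice at 5 weeks, and 38.4 to 108 and 103 to 195 TPM at 25 weeks. Of 7 regenerating fibre markers 6 and 2 were called higher. With median-of-ratios scaling the counts higher at 5 and 25 weeks were 3 and 5 for fibroblast, 9 and 8 for macrophage and 6 and 3 for regenerating fibre markers, with 1 of the last list lower at each age. On that scale 11.6% and 5.56% of all genes were higher. Of these markers Trem2, Mymk, Mymx and Cd14 had medians of 0.131, 0.356, 0.205 and 0.902 TPM over the 32 libraries, so they passed the filter on low values only through the libraries where they were high. The same was true of Wisp1, Smoc1, Nt5e, Egr1, Itga2b and Mkx in the other lists. With age, 3 of 8 fibroblast, 1 of 10 macrophage and 3 of 7 regenerating fibre markers fell in WT with median-of-ratios scaling. In Col6a2-/- 3, 7 and 6 fell. Those that rose were 0, 1 and 0 in WT and 1, 1 and 0 in Col6a2-/-. Of all genes 14.4% fell in WT and 17.2% in Col6a2-/- on that scale. The part of these 3 lists in the differences of the members between genotypes or ages was not tested.

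Of 5 platelet markers 2 passed the filter, Pf4 and Itga2b, and both were called higher at 5 weeks; the defining Gp1ba and Gp9 were at 0 in 27 and 22 of the 32 libraries. In the lists for endothelium, smooth muscle and pericytes, red cells, Schwann cells and adipocytes 2, 1, 0, 0 and 0 markers were higher at 5 weeks and 0 at 25 weeks, with 0 lower at either age. With median-of-ratios scaling 0 endothelial and 0 smooth muscle and pericyte markers were higher. With age, 1 of 5 endothelial and 2 of 5 Schwann markers fell in WT on that scale, and 2 and 3 in Col6a2-/-. In the smooth muscle and pericyte, red cell and adipocyte lists 0 fell in either genotype. Of 7 mature muscle fibre markers 3 were lower at 5 weeks and 0 at 25 weeks on TPM, where 2.14% and 0.234% of all genes were lower. These counts depended on the scaling: 5 and 4 were lower with median-of-ratios scaling (12.7% and 5.24% of all genes), and 1 and 1 with quantile normalization (13.0% and 2.85%).

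Tenocyte markers moved with several members from mouse to mouse. Of the 7 markers (Tnmd, Scx, Mkx, Fmod, Kera, Chad and Ptx4) 0 were called between the genotypes at either age, and 4 fell with age in each genotype. Their sum was 45.4 to 220 TPM in WT and 38.9 to 263 TPM in Col6a2-/- mice at 5 weeks, and 11.9 to 95.3 and 35.2 to 119 TPM at 25 weeks. Deviations of the single mice from their group means correlated with the deviations of this sum with r = 0.92 for Tnc, 0.87 for Cilp and for Thbs1, 0.85 for Thbs4 and 0.77 for Sparc, but 0.42 for Postn and 0.44 for Fn1. Other marker sums moved with the members as well: Sparc gave 0.88 with fibroblast, 0.85 with platelet and 0.81 with macrophage markers, and Postn 0.60, 0.68 and 0.63. In the same order Tnc gave 0.74, 0.83 and 0.66, and Cilp 0.73, 0.80 and 0.70. These are descriptions over 32 libraries, in which all values share the scaling of the library. The part of tendon or fascia in the sections was not tested.

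**Figure D4:**
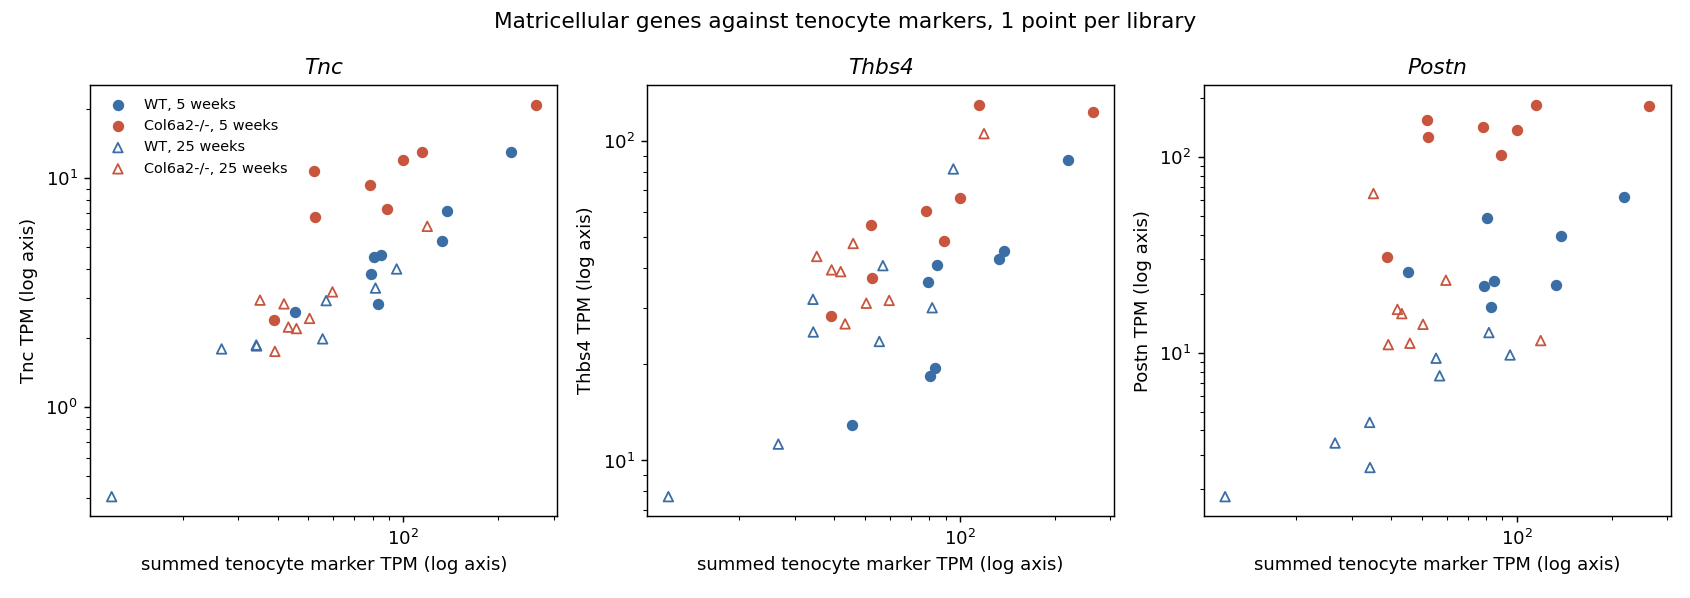
TPM of Tnc, Thbs4 and Postn against the summed TPM of 7 tenocyte markers, 1 point per mouse, on log axes; blue is WT, red is Col6a2-/-, filled circles are 5 weeks and open triangles 25 weeks. Tnc is higher in mice with a higher marker sum. Most red circles of Postn stand above the blue circles, a difference by which Postn was chosen.

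The mouse with the highest sum at 5 weeks was mutant female 2, at 263 TPM, which also had the highest Tnc, 21.0 TPM, Sparc, 653 TPM, and Cilp, 150 TPM. The lowest mutant was female 4, at 38.9 TPM, the mouse with the lowest Postn, Cilp, Fn1 and Tnc among the 8 mutants of 5 weeks. When the mice with the highest and the lowest sum of each genotype and age were left out, 24 libraries remained, an alternative chosen after seeing the data. Postn then differed between genotypes by 2.10 at 5 and 1.14 at 25 weeks, Cilp by 2.24 and 1.32, and Fn1 by 0.86 and 0.92 (log2), values given as a description because the members were selected on these differences. With age, 6 members were then called in WT and 7 in Col6a2-/-, against 16.4% and 29.4% of all genes in the same fit. The Col6a2-/- count holds Postn, Cilp and Tnc, whose changes there are a description only, so nothing is read from it.

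The members fell into sets by how mice of 1 group differed among themselves. Of 45 pairs of members 43 had a positive correlation of deviations, with a median of 0.43 over pairs. All values share the scaling of the library, and the same share over pairs of all genes was not taken. Nothing particular to the members is therefore read from that count. Tnc, Thbs1, Thbs4 and Cilp formed the tightest set, with r between 0.80 and 0.85 for every pair. Postn went most closely with Fn1, at 0.78. Cyr61 and Ctgf correlated with the summed immediate early genes at 0.60 and 0.48, where Postn gave -0.10. They gave higher values with Thbs1, 0.66 and 0.65, and 0.40 with each other. The lowest pair was Spp1 with Ctgf, at -0.41.

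**Figure D5:**
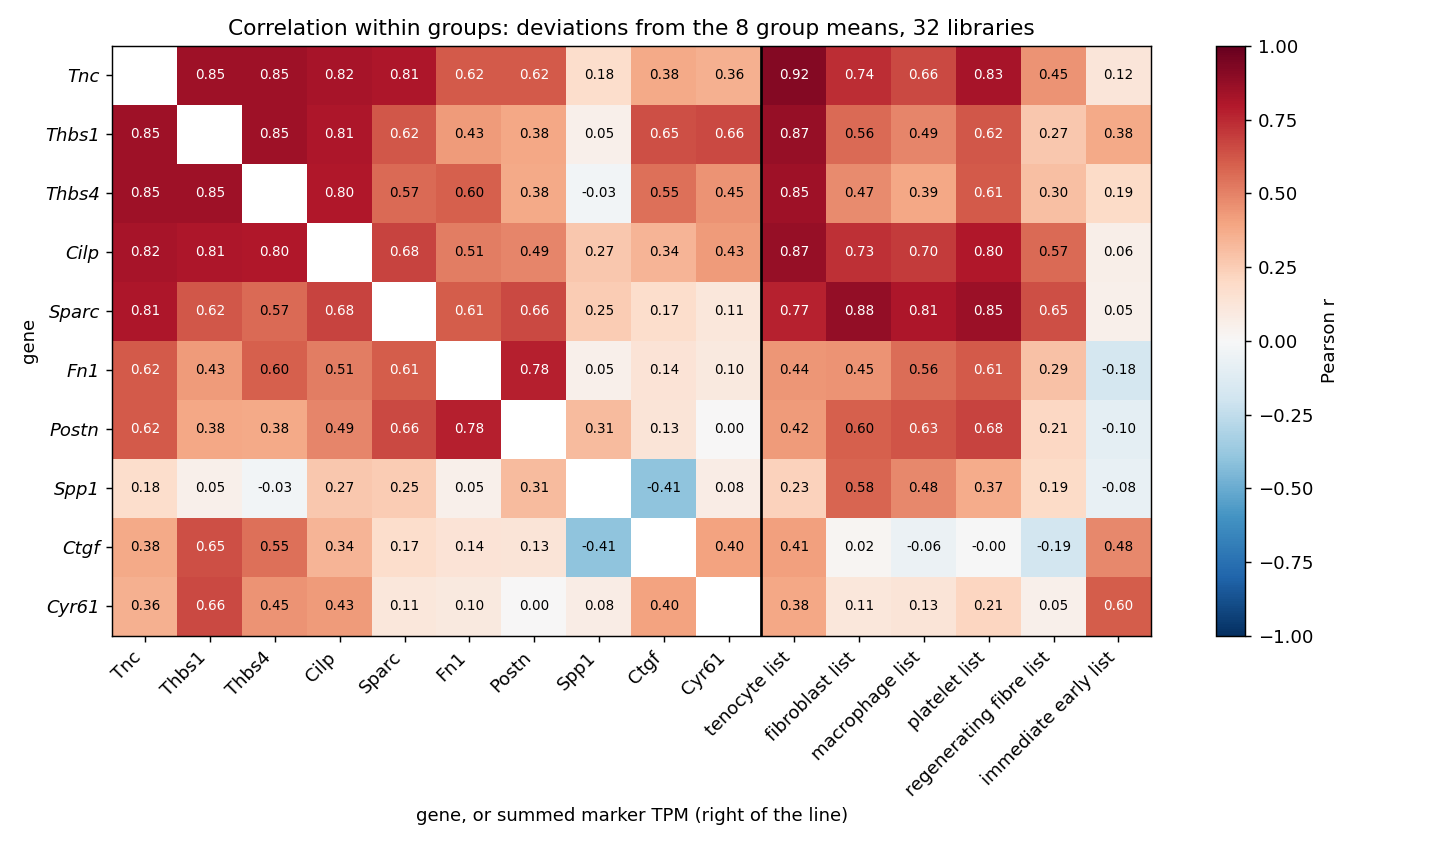
Pearson r of the deviations of log2 values from the 8 group means over 32 libraries, for each pair of members and, right of the line, for each member with the summed TPM of 6 gene lists (tenocyte, fibroblast, macrophage, platelet, regenerating fibre and immediate early). Tnc, Thbs1, Thbs4 and Cilp form a dark block that extends to the tenocyte list, among the 6 lists drawn Sparc is darkest with the fibroblast list (0.88), and Ctgf and Cyr61 are pale against the fibroblast and macrophage lists.

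Genes whose levels were most like those of Postn over the 32 libraries, by Pearson r, were Mfap5 (0.97), Fstl1, Slc25a5, Col6a1 (0.95) and Col5a2. By the deviations from the group means they were B4galnt1 (0.86), Col6a1 (0.86), Emilin2, Fcna and Rbm43 (0.82). Col6a1, which encodes the alpha 1 chain of collagen VI, was the gene on both lists of 5.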

How the data were processed

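The tables hold 1 quadriceps library each. Per the submitters' processing notes, reads were trimmed with Trimmomatic, aligned to GRCm38/mm10 with HISAT2 and quantified with StringTie; tool versions, annotation release and strand setting are not given in the sources used here, so reads of overlapping or antisense genes cannot be told apart. The TPM and FPKM values, scaled to transcript length and library total, and the mean coverage per gene were computed by the authors, per the file headers. No read counts were used, so sequencing depth is unknown and tests for counts were not run.

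TPM was summed per gene ID. Values were analysed as log2(TPM + 1), a scale that understates changes of low genes, for the 12817 genes that reached 1 TPM in 4 or more libraries. A linear model (limma 3.58.1 in R 4.3.3, moderated with a trend) had a mean for each of the 8 groups over all 32 libraries, and p-values were adjusted by Benjamini-Hochberg over all genes in each of 7 comparisons; a gene is called at an adjusted p under 0.05. Differences average over sex. The fit was tested on simulated data. The members, the gene lists and the tests were chosen with earlier results of these data known. Named are the 10 members, the genes of the lists with the largest changes, and the 5 genes most like Postn. Alternatives covered the pseudocount, the filter, scaling, unit, replicate numbers and left-out mice.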

Additional observations from a re-analysis of the deposited data

Results flagged for a closer look

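Within a group of 4 mice, a value was set apart when its gap to the nearest other mouse was a larger part of the range of the group than Dixon's critical value at the 95% level, which chance alone does in about 1 of 20 groups. This held for 8 of the 80 combinations of member and group, in 6 mice.

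Among 25-week mutant females, replicate 1 was highest in Postn, at 65.0 TPM against 13.9 TPM for the next mouse, and in Fn1, at 125 TPM against 39.6 TPM. Its tenocyte marker sum, 35.2 TPM, was the lowest of the 8 mutants of that age. Replicate 4 of the same group was highest in Thbs4, at 105 TPM against 43.5 TPM, and had the highest tenocyte marker sum of those mutants, 119 TPM.

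Among 25-week WT females, replicate 3 was highest in Thbs1, at 18.01 TPM against 9.41 TPM, and in Ctgf, at 14.8 TPM against 5.09 TPM. Its tenocyte marker sum of 95.3 TPM was the highest of the WT mice of that age. Among 25-week WT males, replicate 3 was lowest in Tnc, at 0.405 TPM against 1.79 TPM, with the lowest tenocyte marker sum of all 32 mice, 11.9 TPM.

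Fn1 in 25-week mutant males was lowest in replicate 3, at 19.4 TPM against 29.7 TPM. Spp1 in 5-week mutant females was lowest in replicate 4, at 1.89 TPM against 4.43 TPM. The part of tendon or of any other tissue in these values was not tested.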

How the results depend on the processing

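The genotype differences chose the members, so their values under the alternatives are a description: over left-out mice Postn ran from 1.81 to 2.23 at 5 weeks and 1.21 to 1.62 at 25 weeks, and Cilp from 2.04 to 2.35 and 1.33 to 1.55 (log2). The count of members called at 5 weeks was 6 and became 2 with no filter on low values, 2 with median-of-ratios scaling and 2 with quantile normalization; leaving out single mice gave 2 (without WT male 2, mutant female 2 or 3, or mutant male 3) to 8 (without mutant female 4), with 3 without WT female 3 or mutant male 1. The share of all genes called, 25.4%, moved in some of these fits. It was 11.2% of 32958 genes with no filter, and 24.3% and 24.1% with median-of-ratios scaling and quantile normalization. It was 37.1% without mutant female 4, 17.9% without mutant female 2, 17.4% without mutant male 1 and 24.3% without mutant female 3. At 25 weeks the count of members was 3, and 5 when only the groups compared were fitted, where the share of all genes rose from 4.70% to 9.18%. Ctgf at 5 weeks turned to -0.042 with median-of-ratios scaling and -0.0062 with quantile normalization, and ran from -0.12 (without WT male 1) to 0.44 (without WT male 3) when single mice were left out. Cyr61 with age in Col6a2-/- turned to 0.15 with median-of-ratios scaling, 0.041 with mitochondrial and Rn7s genes left out of the scaling, 0.12 with quantile normalization and 0.016 with FPKM, and ran from -0.11 to 0.038 over left-out mice. The scalings differ by moving the median of all genes, from 0.145 to -0.012 and -0.025 at 5 weeks; the cause of the other changes was not tested.

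With age, Postn, Sparc, Ctgf and Fn1 in WT and Postn, Sparc, Tnc and Cilp in Col6a2-/- were called in each alternative run. Tnc in WT lost its call with no filter and without WT male 3 of 5 weeks. Spp1 in Col6a2-/- was lost in 9 of 32 fits that left out a mouse, and with no filter and 3 of the other scalings. For Postn, Cilp, Tnc and Spp1 in Col6a2-/- the calls support nothing under any setting, because the selection of the members remains. With a replicate block the members called were 5 at 5 weeks (25.7% of all genes), 3 at 25 weeks (5.13%) and 5 with age in each genotype (20.2% in WT and 34.5% in Col6a2-/-). The main fit treated the numbers as not pairing mice, because the labels do not say what they mark. A correlation of deviations above 0.1 was found in 8 of 16 same-numbered pairs across genotype (-0.061 to 0.23). With the pairs across age included it was found in 15 of 32 (-0.20 to 0.34). As a hint of pairing in the data, in 8 of 16 genotype pairs the mouse of one genotype correlated best with its own number in the other, where chance gives 1 in 4. Whether the numbers mark litters or days was not tested. Spp1 was not tested with a minimum of 5 TPM, and fitting only the groups compared gives no separate fit for the interactions and for sex.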
